A study of Homo sapiens with 6 samples.

Results

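The genes described here encode the centromere and the kinetochore, the chromosomal site and the protein machine that join each chromosome to the spindle at cell division. The set is a list of 36 gene names: CENPA and the factors that load it, the network that sits on CENPA, the outer kinetochore, and the remaining CENP-named genes. Of these, 35 have a listed transcript among the 12010 named genes of the series, and CENPM was not analysed here. CENPA was listed below the mean of 0.5 FPKM required for a test, so 34 members were tested.

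RNA sequencing compared 6 samples of 92.1, an established human cell line from a uveal melanoma, a pigment cell tumour of the eye. The 3 DMSO samples received the solvent, and the 3 LBH589 samples had the drug at 0.1 µM, each for 24 h. The drug, also called panobinostat, is a histone deacetylase inhibitor: it blocks enzymes that take acetyl groups off histone tails. All 6 samples come from this 1 line, and the labels name no separate cultures, so the p-values reflect only how these samples vary, and that variation may be technical. Values are FPKM (fragments scaled to transcript length and library size), summed over the listed transcripts of a gene. The files hold no counts, so the depth behind a value is unknown and no counting interval is given.

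At the centromere, nucleosomes carry CENPA in place of the usual histone H3. After each division, the MIS18 proteins and the chaperone HJURP bring new CENPA there. The constitutive centromere-associated network (CCAN) stays on these nucleosomes through the cell cycle. In mitosis it recruits KNL1 and the MIS12 and NDC80 complexes, NDC80 binds microtubules, and the SKA complex and the motor protein CENPE stabilise that hold. Many of these genes are transcribed mainly in the later part of the cell cycle. In resting cells the DREAM complex represses such genes through a promoter element called the cell cycle genes homology region (CHR), in dividing cells MYBL2 and FOXM1 activate them, and NF-Y binds CCAAT boxes in many of the same promoters.

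The promoters of CENPF, NUF2, SPC25 and HJURP, the 4 tested members with the largest falls in log2(FPKM + 1), are shown. Beside them are those of CENPA, of CENPC, whose values overlapped between the groups, and of CENPX, the 1 member that rose. Each stretch runs 5′ to 3′ along the gene, from 120 bases before to 30 bases after the RefSeq start site, in build GRCh38.p14. Capitals mark matches on either strand to TTTGAA (the CHR core) and to CCAAT.
CENPF promoter, chr1:214603075-214603224, plus strand: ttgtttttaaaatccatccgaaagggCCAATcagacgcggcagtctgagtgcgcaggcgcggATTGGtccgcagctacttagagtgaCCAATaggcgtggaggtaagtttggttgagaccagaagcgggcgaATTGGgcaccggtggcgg
NUF2 promoter, chr1:163321834-163321983, plus strand: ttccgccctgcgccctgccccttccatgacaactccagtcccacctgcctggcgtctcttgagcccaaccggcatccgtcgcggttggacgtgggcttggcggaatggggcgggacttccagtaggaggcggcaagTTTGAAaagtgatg
SPC25 promoter, chr2:168890401-168890550, minus strand: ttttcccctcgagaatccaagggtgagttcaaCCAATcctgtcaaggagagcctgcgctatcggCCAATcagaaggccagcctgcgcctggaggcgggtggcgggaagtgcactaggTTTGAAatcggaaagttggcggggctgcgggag
HJURP promoter, chr2:233854506-233854655, minus strand: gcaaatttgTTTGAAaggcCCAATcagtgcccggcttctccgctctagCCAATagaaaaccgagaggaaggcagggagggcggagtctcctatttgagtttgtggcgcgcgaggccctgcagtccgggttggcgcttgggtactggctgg
CENPA promoter, chr2:26785936-26786085, plus strand: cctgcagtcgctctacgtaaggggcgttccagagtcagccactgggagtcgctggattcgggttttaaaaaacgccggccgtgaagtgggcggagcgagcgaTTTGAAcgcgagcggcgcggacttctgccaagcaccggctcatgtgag
CENPC promoter, chr4:67545474-67545623, minus strand: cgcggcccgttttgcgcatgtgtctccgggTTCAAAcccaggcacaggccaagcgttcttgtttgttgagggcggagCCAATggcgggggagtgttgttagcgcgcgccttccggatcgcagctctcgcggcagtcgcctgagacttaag
CENPX promoter, chr17:82022849-82022998, minus strand: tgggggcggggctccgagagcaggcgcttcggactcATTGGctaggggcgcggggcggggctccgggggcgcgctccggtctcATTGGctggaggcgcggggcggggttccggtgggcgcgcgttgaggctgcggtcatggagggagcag
SPC25 and HJURP hold both elements in the stretch shown. NUF2 and CENPA hold a CHR match alone there, and CENPA has CCAAT boxes beyond the stretch, at bases -205 and -130 from the start. CENPF holds CCAAT boxes, and its CHR match begins at base 41 after the start, beyond the stretch. CENPC also holds both elements, and CENPX holds CCAAT boxes alone.

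Most of the kinetochore genes fell with LBH589. Of the 34 members tested with limma, 27 fell, 1 rose and 6 were not called at a Benjamini-Hochberg adjusted p below 0.05. Over all 11520 genes tested, 21.6% fell and 27.2% rose, 48.8% together. Falls of 2-fold or more (log2 of FPKM + 1) numbered 23 among the members, against 10.7% of all genes tested. The median log2 fold change of the tested members was -1.56, and that of all genes tested was 0.08. For 30 of the 34 members, all 3 LBH589 libraries lay below all 3 DMSO libraries, which 26.5% of all genes tested did. Summed over the 35 listed members, the level was between 473 and 500.0 FPKM in the DMSO libraries and between 140.0 and 147 FPKM in the LBH589 libraries. After scaling the libraries to equal sums of FPKM, the median of all genes was 0.23, 65.2% of all calls were rises (55.8% without it), and 26 members fell. In bulk RNA, fewer cells in the phases that transcribe these genes and less of their RNA per cell cannot be told apart.

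**Figure D1:**
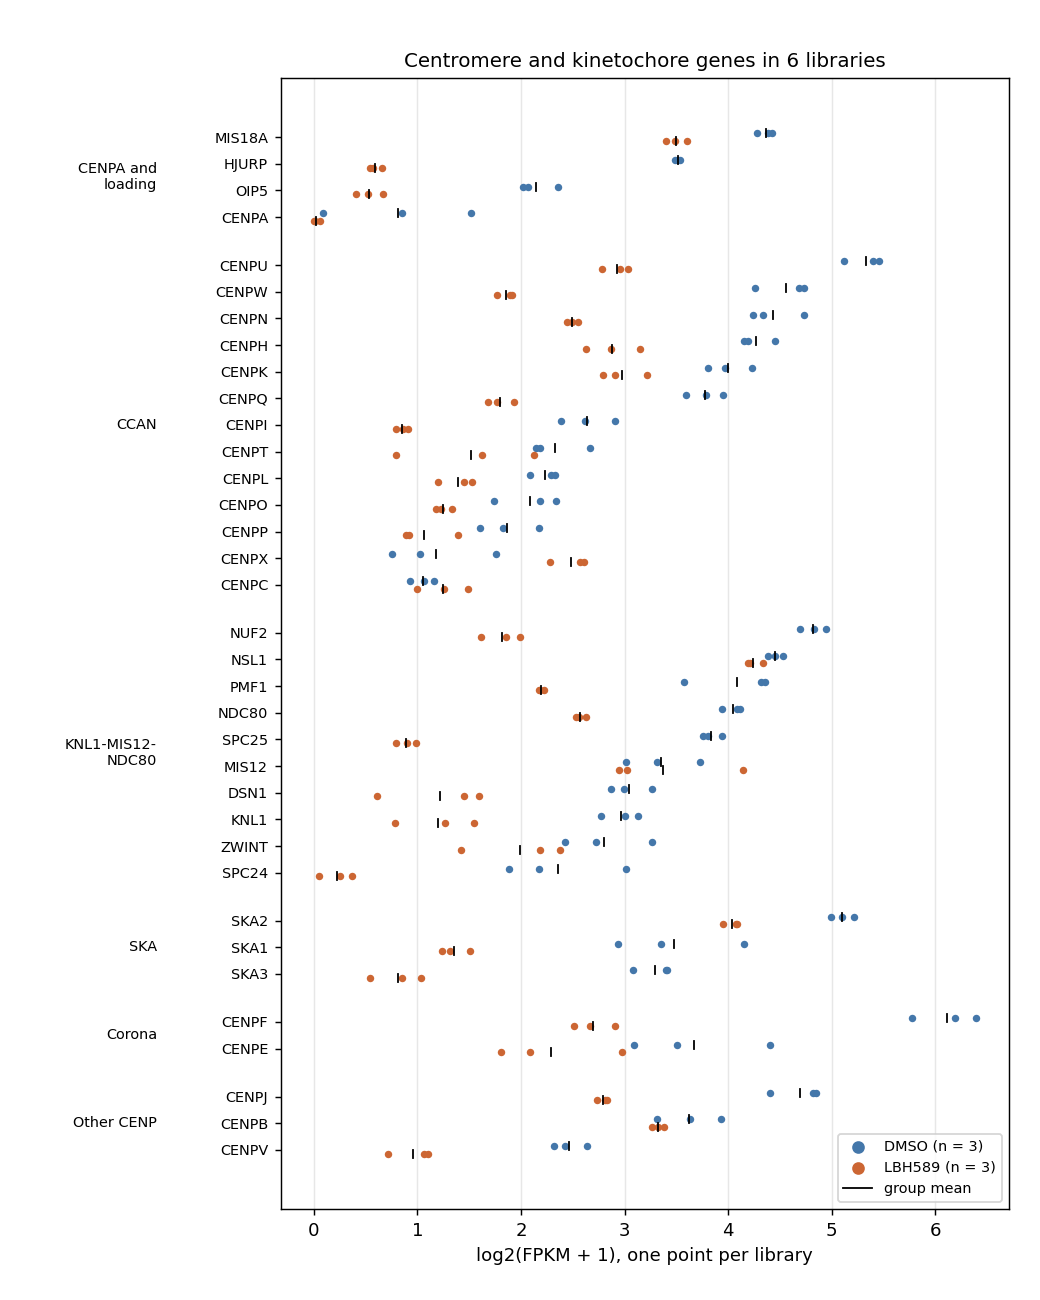
Level of the 35 listed members as log2(FPKM + 1) on the horizontal axis, 1 point per library (DMSO blue, LBH589 orange, 3 each, ticks are group means), grouped by complex. For most members the LBH589 points lie left of the DMSO points, those of CENPC, MIS12 and CENPB overlap, and those of CENPX lie to the right.

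Libraries of a group resembled each other more than those of the other group: across the tested genes, which are not independent replicates, Pearson's r was at least 0.944 within a group and at most 0.822 between groups. The part of the listed FPKM that came from mitochondrially encoded genes was 35.8% to 45.7% in DMSO and 35.1% to 37.3% in LBH589. All 7 melanocyte lineage markers were listed, with summed levels of 2530.4 to 2670.3 FPKM in DMSO and 718 to 774 FPKM in LBH589. TYRP1 made up most of these sums (means of 1796 FPKM in DMSO and 500 FPKM in LBH589). The markers differed in their change. SOX10 went from a mean of 69.4 to 0.688 FPKM, while PMEL (274 and 200 FPKM) alone overlapped between the groups. Of the fibroblast markers 2 of 5 were listed (COL1A1 and LUM), with sums of 1.47 to 2.52 FPKM in DMSO and 4.23 to 5.55 FPKM in LBH589. Of the epithelial markers 1 of 4 was listed (EPCAM), at 0.19 to 0.452 FPKM in DMSO and 0.692 to 1.12 FPKM in LBH589. Of the immune markers 1 of 4 was listed (CD68), at 11.6 to 16.8 FPKM in DMSO and 6.69 to 12.4 FPKM in LBH589, and 0 of 3 endothelial markers were listed. The part of these differences in the results on the members was not tested.

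CENPA, the histone variant at the base of the structure, had very low listed values. Its 1 listed transcript, ENST00000335756.8_1, was at 0.0595, 0.799 and 1.86 FPKM with DMSO (replicates 1 to 3), and with LBH589 it was at 0.0389 and 0.00672 FPKM in replicates 2 and 3 and listed at 0 in replicate 1. The DMSO libraries span a wide range, and the lowest of them lies above every LBH589 library. Without the filter on low values CENPA was not called (log2 fold change -0.79, SE 0.35, adjusted p = 0.107). Without DMSO replicate 1 it was called lower (-1.16, adjusted p = 0.0117), and without 1 of the LBH589 libraries it was not (adjusted p between 0.191 and 0.205). CENPA shares exon sequence with SLC35F6 on the same strand, whose own level was 2.51 ± 3.44 in DMSO and 3.2 ± 1.58 FPKM in LBH589.

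The 3 tested genes that load CENPA all fell. HJURP, the CENPA chaperone, was at 10.2, 10.4 and 10.6 FPKM with DMSO and at 0.573, 0.458 and 0.482 FPKM in LBH589, a ratio of group means of 20.6 (log2 fold change -2.92, SE 0.12, adjusted p = 2.47e-05). The DMSO values of HJURP lie close together and every LBH589 value is far below them. OIP5, a MIS18 complex subunit that prepares centromeres for new CENPA, went from 4.11, 3.18 and 3.05 FPKM to 0.324, 0.438 and 0.583 FPKM (log2 fold change -1.62, SE 0.15, adjusted p = 0.000351). MIS18A, a partner subunit, went from 19.9, 18.4 and 20.5 FPKM to 10.2, 9.53 and 11.2 FPKM (log2 fold change -0.86, SE 0.11, adjusted p = 0.000998). Both genes are separated between the groups, and the LBH589 mean was 0.527 of the DMSO mean for MIS18A, 0.13 for OIP5 and 0.0484 for HJURP.

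Beyond the members, 12 other genes known to act in CENPA deposition were tested, of which 5 fell and 2 rose (median log2 fold change -0.67). Over all genes tested 21.6% fell and 27.2% rose, so rises were no more common in this list than among all genes. CUL4A, a scaffold of ubiquitin ligases, fell from 33.4 ± 2.81 to 12.7 ± 3.35 FPKM (mean ± SD, n = 3 per group, as in every such pair of values; log2 fold change -1.36, adjusted p = 0.00176). NPM1, an abundant histone chaperone, fell from 963 ± 72.2 to 542 ± 46.1 FPKM, and SSRP1, a subunit of the chaperone FACT, fell from 93.6 ± 14.7 to 50.8 ± 1.35 FPKM. The remodelling proteins SMARCA5 (log2 fold change 0.47, adjusted p = 0.021) and RUVBL2 (log2 fold change 0.96, adjusted p = 0.0414), named after their values were seen, rose. The number of rises in this list was 0 without DMSO replicate 2 or without any 1 LBH589 library, and 1 without DMSO replicate 3.

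Of the 13 CCAN members tested, 10 fell, 1 rose and 2 were not called, and their median log2 fold change was -1.03. CENPW, a histone-fold protein that pairs with CENPT on DNA, went from 25.6, 24.7 and 18.1 FPKM to 2.41, 2.78 and 2.71 FPKM (log2 fold change -2.70, SE 0.16, adjusted p = 7.24e-05). CENPU, which recruits the kinase PLK1 to kinetochores, went from 43.1, 33.8 and 41.3 FPKM to 5.9, 7.18 and 6.74 FPKM (log2 fold change -2.40, SE 0.13, adjusted p = 5.76e-05). CENPQ, a partner of CENPU in the CCAN, went from 11.1, 12.8 and 14.4 FPKM to 2.41, 2.82 and 2.2 FPKM (log2 fold change -1.98, SE 0.14, adjusted p = 0.000137). For these 3 genes the lowest DMSO value is several times the highest LBH589 value, and CENPU had the highest mean level of the CCAN in DMSO. CENPN, which with CENPL recognises the CENPA nucleosome, went from 25.7, 17.9 and 19.2 FPKM to 4.61, 4.86 and 4.43 FPKM (log2 fold change -1.94, SE 0.16, adjusted p = 0.000202). CENPL, its partner, fell from 3.71 ± 0.413 to 1.64 ± 0.31 FPKM (log2 fold change -0.84, adjusted p = 0.00479).

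The CCAN subcomplex of CENPH, CENPI, CENPK and CENPM, which links CENPC to the other groups, fell in its 3 listed subunits. CENPI fell from 5.3 ± 1.15 to 0.807 ± 0.071 FPKM (log2 fold change -1.79, adjusted p = 0.000366), CENPH from 18.3 ± 2.3 to 6.46 ± 1.34 FPKM (log2 fold change -1.38, adjusted p = 0.00106), and CENPK from 15.1 ± 2.45 to 6.92 ± 1.23 FPKM (log2 fold change -1.03, adjusted p = 0.00348). CENPO and CENPP, partners of CENPQ and CENPU, were called with smaller fold changes on the log2(FPKM + 1) scale. Their ratios of group means were 2.41 and 2.4 (DMSO over LBH589), against 2.19 for CENPK. CENPO fell from 3.32 ± 0.881 to 1.37 ± 0.134 FPKM (log2 fold change -0.84, adjusted p = 0.011). Its exons overlap those of ADCY3 on the opposite strand, which fell from 2.52 ± 0.979 to 1.02 ± 0.288 FPKM (log2 fold change -0.77, adjusted p = 0.0407), and the part of those reads in the CENPO values was not tested. CENPP was at 2.03, 2.55 and 3.51 FPKM with DMSO and at 0.894, 1.62 and 0.856 FPKM with LBH589 (log2 fold change -0.80, SE 0.22, adjusted p = 0.0241). The CENPP values of the groups do not overlap, but its call ended without DMSO replicate 2 (adjusted p = 0.0589) or 3 (0.0575) and without LBH589 replicate 1 (0.0776) or 3 (0.0805).

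CENPC and CENPT, the CCAN proteins that reach from centromeric chromatin to the outer kinetochore, were the 2 CCAN members not called. CENPC, which binds CENPA nucleosomes and the MIS12 complex, was at 1.1, 0.901 and 1.24 FPKM with DMSO and at 0.993, 1.38 and 1.81 FPKM with LBH589 (log2 fold change 0.19, 95% interval -0.21 to 0.60, adjusted p = 0.378). Its groups overlap, and its log2 fold change was -0.04 after quantile normalization. CENPT, which binds DNA and the NDC80 complex, was at 5.34, 3.43 and 3.55 FPKM with DMSO and at 3.38, 2.07 and 0.729 FPKM with LBH589 (log2 fold change -0.82, 95% interval -1.70 to 0.06, adjusted p = 0.109). The LBH589 values of CENPT are widely spread, with the highest just under the lowest DMSO value. CENPT was called lower without LBH589 replicate 1 (-1.13, adjusted p = 0.0418). NUTF2, whose exons overlap those of CENPT on the opposite strand, fell from 49.5 ± 7.87 to 16.2 ± 6.2 FPKM. CENPS and ITGB3BP (CENPR), the CCAN subunits tested from outside the set, had log2 fold changes of -0.29 and -0.71 and were not called.

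CENPX, a histone-fold protein that pairs with CENPS and also takes part in DNA repair with FANCM, was the 1 member that rose. It was at 2.37, 1.03 and 0.684 FPKM with DMSO and at 5.11, 4.92 and 3.85 FPKM with LBH589 (log2 fold change 1.31, SE 0.28, adjusted p = 0.00992). Every LBH589 library lies above every DMSO library, which 33% of all genes tested did. Exons of CENPX overlap those of LRRC45 on the opposite strand. LRRC45 was at 3.32 ± 1.12 FPKM with DMSO and 1.94 ± 0.176 FPKM with LBH589 and was not called (adjusted p = 0.0883). Neither the labels nor the files say whether strand was used in the quantification, and without it reads of these 2 genes cannot be told apart.

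**Figure D2:**
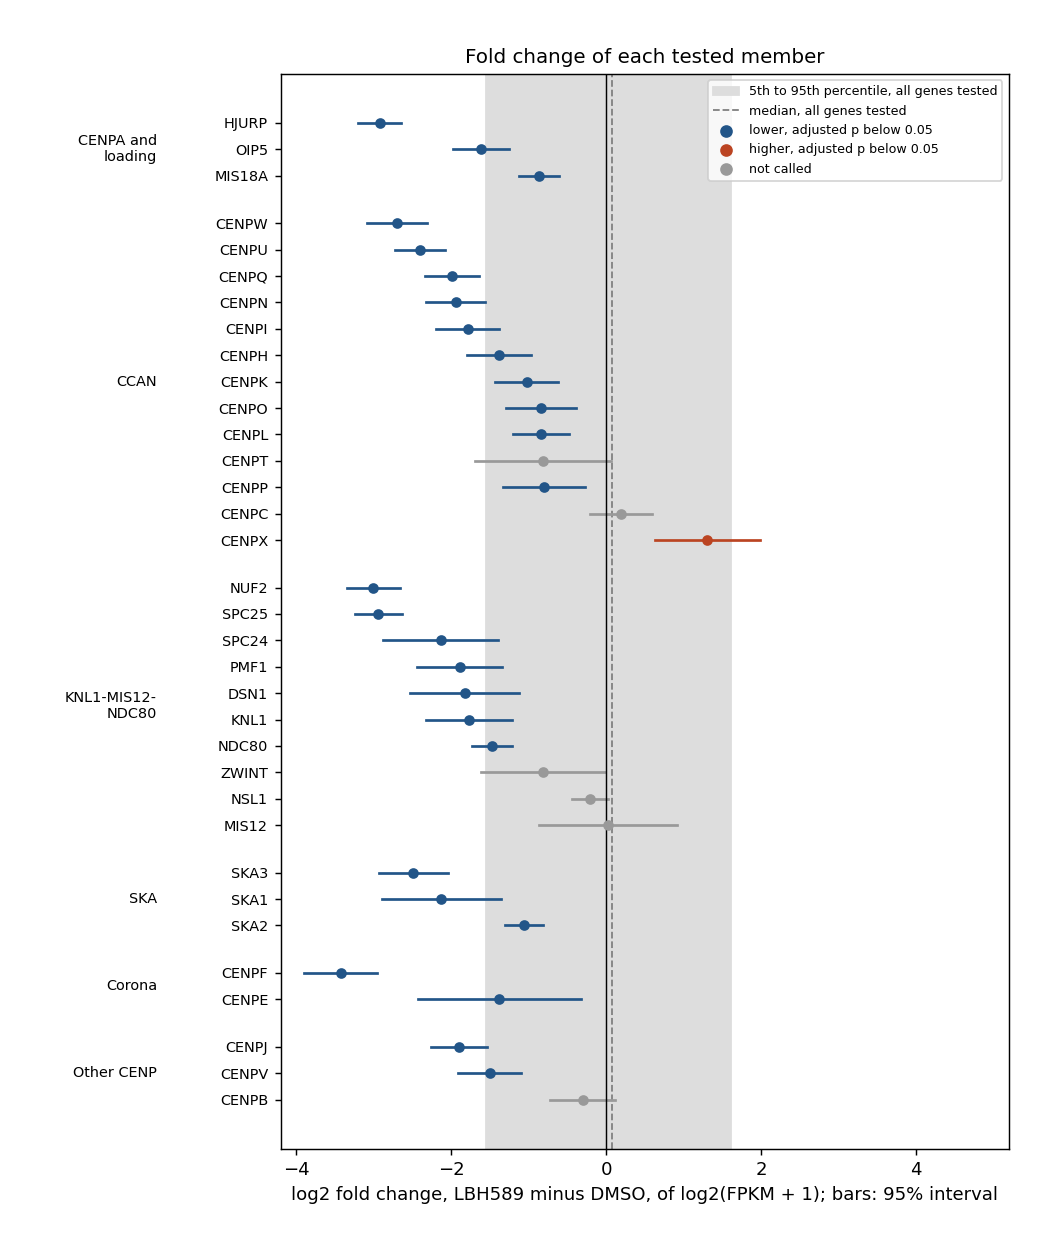
Log2 fold change (LBH589 against DMSO, log2(FPKM + 1) scale) of the 34 tested members with 95% intervals, grouped by complex, beside the spread of all 11520 genes tested. CENPF lies lowest at -3.43 and CENPX highest at 1.31, and 17 of the 34 lie at or below -1.55, the 5th percentile of all genes tested.

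In the outer kinetochore network of KNL1, the MIS12 complex and the NDC80 complex, 7 of 10 members fell, 0 rose and 3 were not called, with a median log2 fold change of -1.80. The 4 genes of the NDC80 complex, the rod that grips the microtubule, all fell. NUF2 went from 27.5, 29.9 and 24.8 FPKM to 2.61, 2.98 and 2.07 FPKM (log2 fold change -3.0, SE 0.14, adjusted p = 3.85e-05). SPC25, part of the end that faces the chromosome, went from 12.9, 12.5 and 14.4 FPKM to 0.986, 0.86 and 0.735 FPKM (log2 fold change -2.94, SE 0.13, adjusted p = 3.15e-05). The ratio of group means was 10.7 for NUF2 and 15.4 for SPC25, and neither gene overlaps between the groups. NDC80, which holds the main microtubule contact together with NUF2, went from 14.4, 16 and 16.4 FPKM to 5.19, 4.79 and 4.9 FPKM (log2 fold change -1.48, SE 0.11, adjusted p = 0.000129). SPC24, the partner of SPC25, went from 7.08, 3.51 and 2.69 FPKM to 0.292, 0.187 and 0.0347 FPKM (log2 fold change -2.13, SE 0.30, adjusted p = 0.00198). Relative to its mean, SPC24 varied more within each group than the other 3 did. Its exons overlap those of another gene on the opposite strand, so its value is uncertain if strand was not used.

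KNL1, the scaffold for the spindle checkpoint kinases and their partners, went from 5.82, 7.05 and 7.73 FPKM to 0.722, 1.93 and 1.41 FPKM (log2 fold change -1.77, SE 0.23, adjusted p = 0.00133). ZWINT, its binding partner, was at 8.64, 4.37 and 5.61 FPKM with DMSO and at 4.2, 1.67 and 3.55 FPKM with LBH589 (log2 fold change -0.81, 95% interval -1.61 to -0.01, adjusted p = 0.0868). The ZWINT groups do not overlap, and the gap between them is narrow. Of the MIS12 complex, which joins the CCAN to KNL1 and NDC80, DSN1 and PMF1 fell and MIS12 and NSL1 were not called. DSN1, the subunit phosphorylated by Aurora B, went from 8.6, 6.29 and 6.96 FPKM to 2.02, 0.521 and 1.73 FPKM (log2 fold change -1.83, SE 0.29, adjusted p = 0.00299). PMF1 went from 19.5, 10.9 and 19 FPKM to 3.66, 3.52 and 3.56 FPKM (log2 fold change -1.89, SE 0.23, adjusted p = 0.00101), and it shares exons with the read-through gene PMF1-BGLAP, so its value is uncertain. The LBH589 values of PMF1 lie within a very narrow range, and both genes are separated between the groups.

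NSL1 and MIS12 had the fold changes nearest to 0 in this network. NSL1 was at 19.9, 20.9 and 22.2 FPKM with DMSO and at 17.5, 17.3 and 19.2 FPKM with LBH589 (log2 fold change -0.21, 95% interval -0.45 to 0.02, adjusted p = 0.114). Its groups are separated by a small gap, and its log2 fold change was -0.04 after scaling the libraries to equal sums. MIS12 was at 8.92, 7.09 and 12.2 FPKM with DMSO and at 16.7, 6.72 and 7.16 FPKM with LBH589 (log2 fold change 0.02, 95% interval -0.87 to 0.92, adjusted p = 0.964). LBH589 replicate 1 is far above the other LBH589 libraries, and the interval for MIS12 leaves room for a change in either direction. Exons of MIS12 overlap those of DERL2 on the opposite strand. DERL2 fell from 4.09 ± 0.847 to 2.48 ± 0.378 FPKM (log2 fold change -0.54, limma adjusted p = 0.0414). The part of its reads in the MIS12 values was not tested.

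The SKA complex, which tracks microtubule ends with NDC80, fell in all 3 genes. SKA1 went from 6.66, 9.24 and 16.8 FPKM to 1.5, 1.84 and 1.36 FPKM (log2 fold change -2.13, SE 0.31, adjusted p = 0.00226). SKA3 went from 9.58, 9.62 and 7.45 FPKM to 0.807, 1.04 and 0.459 FPKM (log2 fold change -2.49, SE 0.18, adjusted p = 0.000145). SKA2 went from 30.9, 33.2 and 36.1 FPKM to 14.4, 15.9 and 16 FPKM (log2 fold change -1.06, SE 0.10, adjusted p = 0.000392). The groups are separate for each gene, SKA1 varied most among the DMSO libraries, and SKA2 had the smallest fall and the highest level.

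Ratios of FPKM between subunits, taken within each library, compare the members of a complex with each other. Of the 15 subunit pairs within the NDC80, MIS12 and SKA complexes, 10 had ratios that did not overlap between the groups (4 of 6 pairs, 4 of 6 and 2 of 3). Of all pairs of tested genes above 0 FPKM in every library, 58.3% did so, so the count does not set these complexes apart from other genes, and the ratios are given as a description. The ratio of NDC80 to NUF2 was 0.523 to 0.659 in DMSO and 1.61 to 2.37 in LBH589. The ratio of NDC80 to SPC25 was 1.11 to 1.28 in DMSO and 5.26 to 6.66 in LBH589. NDC80 was thus the less abundant of the pair with NUF2 in every DMSO library and the more abundant in every LBH589 library. The ratio of NSL1 to PMF1 was 1.02 to 1.92 in DMSO and 4.79 to 5.38 in LBH589. The ratio of SKA2 to SKA3 was 3.22 to 4.84 in DMSO and 15.2 to 34.8 in LBH589. In both pairs every LBH589 library had a higher ratio than every DMSO library. SPC24 and SPC25, partners within NDC80, had overlapping ratios, 0.187 to 0.547 in DMSO and 0.0472 to 0.296 in LBH589.

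**Figure D3:**
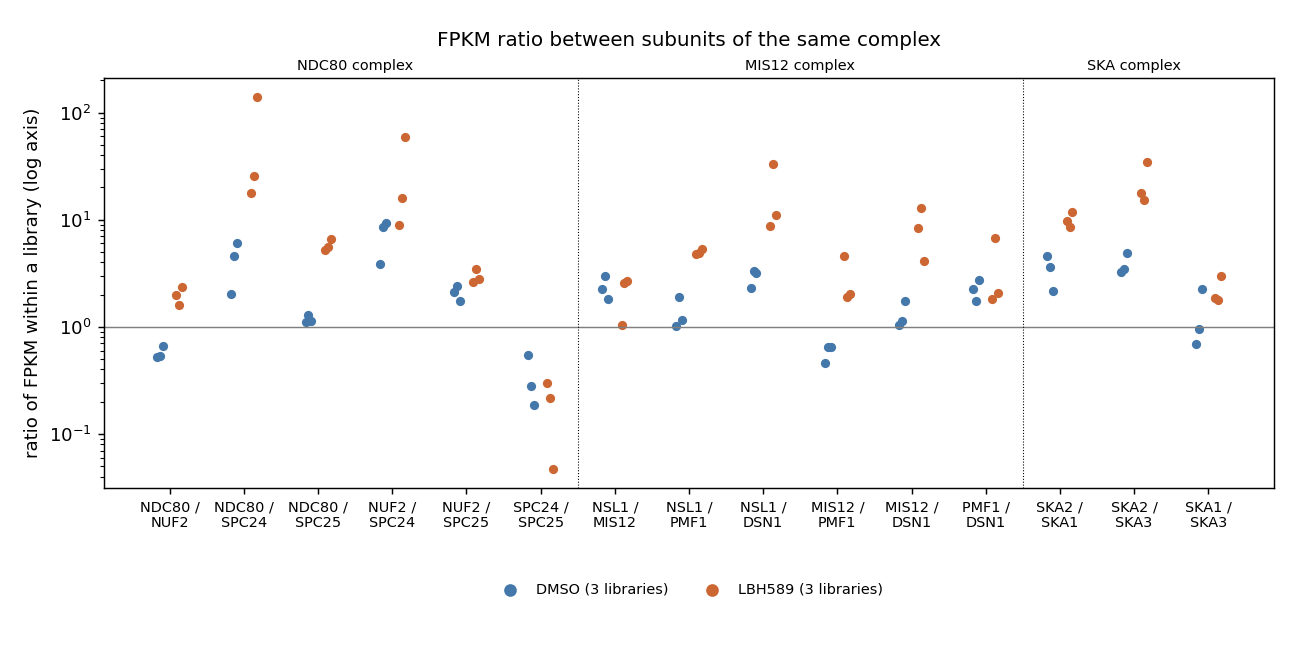
FPKM ratio of each of the 15 subunit pairs within the NDC80, MIS12 and SKA complexes on a log axis, 1 point per library (3 DMSO, 3 LBH589). The ratios of NDC80 to SPC25 move from 1.11 to 1.28 in DMSO to 5.26 to 6.66 in LBH589, while 5 pairs, such as SPC24 to SPC25, overlap.

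CENPF and CENPE, large proteins that join the kinetochore's outer corona in mitosis, both fell. CENPF, a coiled-coil protein that accumulates in G2 and binds dynein partners, went from 53.7, 83 and 71.9 FPKM to 4.69, 5.33 and 6.49 FPKM (log2 fold change -3.43, SE 0.19, adjusted p = 6.84e-05). It had the highest level of all members in DMSO and, on the log2(FPKM + 1) scale, the largest fall. It ranked 41 from the lowest log2 fold change among the 11520 genes tested. By the ratio of group means, the tested members SPC24 (25.8), HJURP (20.6) and SPC25 (15.4) fell further than CENPF (12.6). CENPE, the kinesin motor that carries chromosomes to the spindle equator, went from 7.53, 20.1 and 10.4 FPKM to 2.51, 3.25 and 6.87 FPKM (log2 fold change -1.38, SE 0.43, adjusted p = 0.0405). The CENPE groups are separated only narrowly, since LBH589 replicate 3 approaches the lowest DMSO library. DMSO replicate 2 is far above the other DMSO libraries. The CENPE call ended without DMSO replicate 2 (adjusted p = 0.0936) or 3 (0.0753), without LBH589 replicate 1 (0.115) or 2 (0.112), and after scaling to equal sums (0.0554).

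The remaining CENP-named genes share the prefix but not a single role. CENPB, which binds a DNA box in alpha satellite repeats, was at 14.3, 11.4 and 8.93 FPKM with DMSO and at 8.99, 9.4 and 8.63 FPKM with LBH589 (log2 fold change -0.30, 95% interval -0.72 to 0.12, adjusted p = 0.198). Its groups overlap, and it was called lower without DMSO replicate 3 (-0.46, adjusted p = 0.0438). CENPJ, a centriole protein and not a part of the kinetochore, went from 20.2, 27.8 and 27.3 FPKM to 5.65, 6.02 and 6.11 FPKM (log2 fold change -1.90, SE 0.15, adjusted p = 0.000179). CENPV, which acts in chromosome alignment and cell division, went from 4.39, 5.24 and 3.99 FPKM to 1.15, 0.642 and 1.09 FPKM (log2 fold change -1.50, SE 0.17, adjusted p = 0.000722). Both are well separated between the groups.

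The split of a gene's FPKM between its transcripts could differ widely between libraries of a group. The 35 listed members have 93 listed transcripts, and 10 members have 1. Transcript CENPJ-201 was at 2.12, 22.8 and 3.45 FPKM in the DMSO libraries and CENPJ-205 at 17, 0.638 and 22.6 FPKM, while their gene's sum stayed between 20.2 and 27.8 FPKM. When each gene was represented by its most abundant transcript, 18 members were called lower, all among the 27. Of all genes tested, 15.3% were then called lower, against 21.6% with summed transcripts. The calls of CENPK, CENPL, CENPN, CENPO, CENPP, KNL1, SKA1, CENPE and CENPJ ended (adjusted p between 0.0661 and 0.801). By GENCODE 29 exons, 15 members overlap another gene, 13 of them on the opposite strand, and of the 20 tested members with no overlap 16 fell. The overlaps not named above are those of HJURP, OIP5, CENPL, CENPN, CENPP, CENPU, CENPV and NUF2. PRIMPOL, which overlaps CENPU, rose from 2.60 ± 0.0503 to 4.75 ± 1.41 FPKM (limma adjusted p = 0.033).

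Genes that act with these members at mitosis also fell. Of 14 spindle checkpoint and chromosomal passenger genes, 12 fell and 1 rose (median log2 fold change -1.90). Among all genes tested, 21.6% fell and 27.2% rose, so rises were rarer in this list. BUB1B, a checkpoint protein, fell from 20.1 ± 3.75 to 1.52 ± 0.0893 FPKM (log2 fold change -3.05, adjusted p = 5.32e-05). SGO1, which protects cohesin at centromeres, fell from 13 ± 0.208 to 1.23 ± 0.363 FPKM (log2 fold change -2.67, adjusted p = 7.19e-05). INCENP, the scaffold of the chromosomal passenger complex, fell from 21.6 ± 1.7 to 5.35 ± 0.384 FPKM, and CDCA8, its partner, fell from 5.94 ± 0.695 to 0.777 ± 0.171 FPKM. The 1 rise was that of MAD1L1, which anchors MAD2 at unattached kinetochores, from 6.29 ± 1.66 to 15.4 ± 0.358 FPKM (log2 fold change 1.19, adjusted p = 0.00224), named after its values were seen, and it was not called with the most abundant transcript.

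Of 16 genes of the RZZ complex, the corona and microtubule ends, 8 fell and 1 rose (median log2 fold change -0.58). KIF2C, a kinesin that shortens microtubules at centromeres, fell from 10.7 ± 1.19 to 0.562 ± 0.0542 FPKM (log2 fold change -2.90, adjusted p = 3.5e-05). TRIP13, an ATPase that remodels MAD2, fell from 12.1 ± 2.8 to 0.913 ± 0.429 FPKM, and the RZZ subunits KNTC1 and ZWILCH fell from 14.6 ± 1.49 to 4.78 ± 0.442 FPKM and from 13.2 ± 1.71 to 3.69 ± 0.613 FPKM. The 1 rise, named after its values were seen, was that of PAFAH1B1 (LIS1), a dynein cofactor (log2 fold change 0.39, adjusted p = 0.0131), and it was not called without LBH589 replicate 2. Of 16 tested pericentromeric heterochromatin and cohesin genes, 10 fell and 0 rose. ESCO2, which acetylates cohesin, fell from 10.2 ± 1.76 to 0.622 ± 0.0593 FPKM, and CDCA5 (sororin), which protects cohesin, fell from 7.99 ± 3.04 to 0.341 ± 0.173 FPKM. The cohesin subunit SMC1A fell from 25.3 ± 2.4 to 11.2 ± 1.62 FPKM and CBX3, a heterochromatin protein, from 119 ± 7.67 to 67.1 ± 7.09 FPKM. Of 16 centriole genes, the company of CENPJ, 5 fell and 5 rose, shares near those over all genes tested (21.6% and 27.2%). PLK4, the kinase that starts centriole duplication, fell from 9.6 ± 2.13 to 1.9 ± 0.247 FPKM and CEP135, a part of the centriole core, fell from 7.99 ± 1.56 to 2.31 ± 0.247 FPKM. CEP63 rose from 19.7 ± 2.24 to 38 ± 2.57 FPKM and CEP120 rose from 6.72 ± 1.01 to 14.3 ± 0.613 FPKM, both of them centriole assembly proteins. The other rises, named after their values were seen, were those of SPICE1 (0.97), CETN2 (0.88) and CETN3 (0.88 on the log2 scale).

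**Figure D4:**
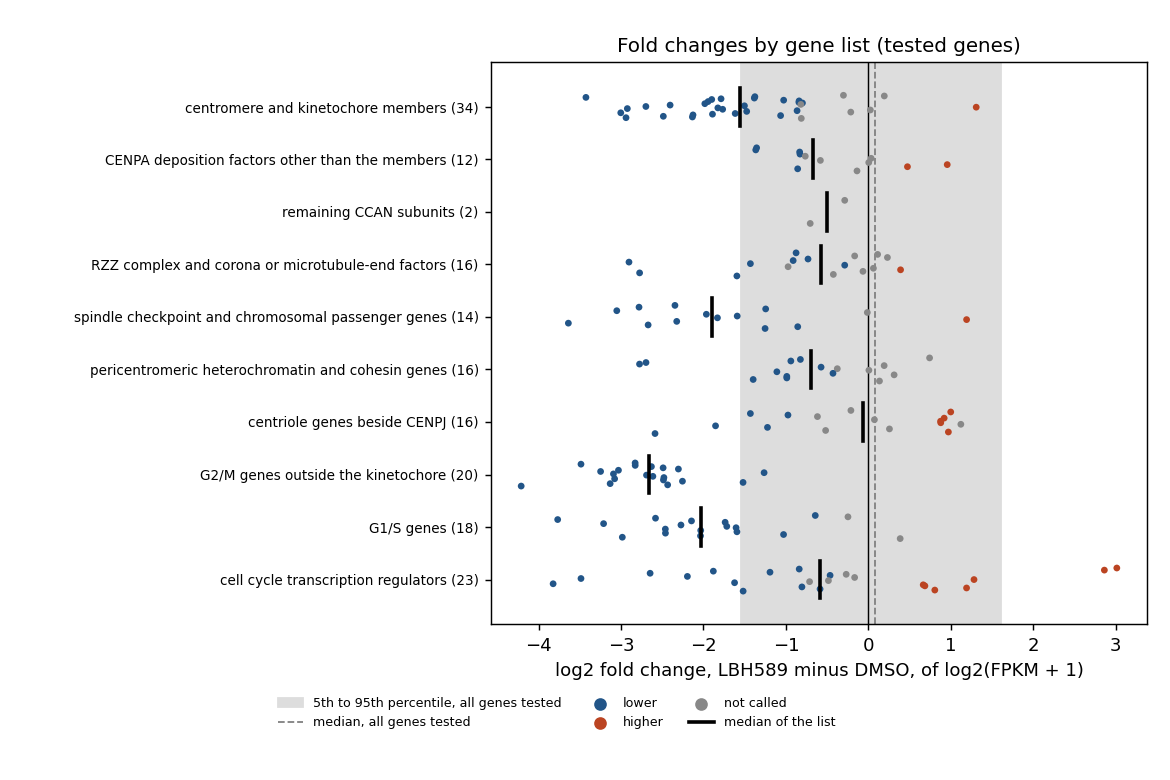
Log2 fold changes of the tested genes in each list, 1 point per gene, with the list median. The G2/M list has a median of -2.66 and the centriole list one of -0.07, and the 34 tested members have one of -1.56.

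The fall extended across cell cycle genes outside the kinetochore. All 20 G2/M genes fell (median log2 fold change -2.66), among them DLGAP5, a spindle assembly factor, from 30.8 ± 1.64 to 2.35 ± 0.157 FPKM, and MKI67, which coats mitotic chromosomes, from 13.5 ± 2.55 to 0.694 ± 0.0355 FPKM. Of 18 G1/S genes, 16 fell and 0 rose (median -2.03), among them CDC25A, a phosphatase that activates cyclin-dependent kinases, from 9.11 ± 0.383 to 0.688 ± 0.0499 FPKM, and CHAF1A, a replication histone chaperone, from 24.7 ± 4.67 to 1.74 ± 0.0536 FPKM. Among 23 transcription regulators of the cell cycle, 12 fell (52.2%) and 7 rose. Over all genes tested 21.6% fell and 27.2% rose, so the share of rises in this list is near that of all genes. MYBL2, which activates genes late in the cycle, fell from 37.7 ± 6.87 to 1.73 ± 0.409 FPKM (log2 fold change -3.82, adjusted p = 4.14e-05), and FOXM1, which acts with it, fell from 14.6 ± 3.4 to 0.385 ± 0.244 FPKM (log2 fold change -3.49, adjusted p = 0.000106). FOXM1 was not called with the most abundant transcript (adjusted p = 0.095). E2F7, a repressor that E2F induces, fell from 9.07 ± 1.62 to 1.18 ± 0.129 FPKM. RBL2 (p130), a DREAM subunit, rose from 9.54 ± 0.203 to 17.5 ± 1.38 FPKM (log2 fold change 0.81, adjusted p = 0.00114), and E2F4, another, was not called (log2 fold change -0.27, adjusted p = 0.629). CDKN1C, a cyclin-dependent kinase inhibitor, rose from 6.57 ± 0.588 to 55.3 ± 15.4 FPKM (log2 fold change 2.86, adjusted p = 0.000129). CDKN1A (p21), another such inhibitor, had a log2 fold change of 3.01. Their relative CDKN1B (p27) fell (-0.84). The subunits of DREAM and NF-Y did not share a direction, and the following, named after their values were seen, are given as log2 fold changes. In and around DREAM, LIN37 (1.28) rose, LIN9 (-1.62), RBL1 (-0.59) and E2F5 (-0.46) fell, and LIN52 (-0.48), LIN54 (-0.71) and RBBP4 (-0.77) were not called. Of NF-Y, NFYA (0.67) and NFYB (0.69) rose and NFYC (-0.81) fell. The retinoblastoma gene RB1 (1.19) was the remaining rise. How far these changes account for those of the members was not tested.

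Promoters were compared over the window from 250 bases before to 50 bases after the start in the RefSeq table, where 30 of the 36 members have an entry. MIS18A, CENPH, CENPL, CENPM, KNL1 and CENPJ have none. The motifs were TTTGAA (CHR), TTTCCCGC and TTTGGCGC (E2F) and CCAAT, searched on both strands and each on its own, so that matches to different motifs may overlap. A CHR match occurred in 12 of 30 members (40%), in 15.4% of the 27305 promoters of the table and in 9.57% of those of tested genes. A CCAAT box occurred in 17 members (56.7%) and in 37.4% of the tested genes, and both elements in 7 members (23.3%) and 4.08%. The E2F motifs occurred in 3 members, CENPA, MIS12 and OIP5, and in 3.94% of the tested genes.

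Within the set, CHR matches occurred in genes that fell and in genes that were not called. A match was present in 9 of the 22 members called lower with an entry (40.9%) and also in CENPC and ZWINT, which were not called, and in CENPA, which was not tested. NDC80 and SKA3 each have the match 3 bases before the start, on the opposite strand, and SPC25 has it at the same distance on the gene's own strand. CENPN has both elements beginning within 6 bases of its start. CENPU, CENPW, CENPQ and PMF1, which fell, have CCAAT boxes and no CHR match, and CENPX has 5 CCAAT boxes. A match describes these letters in this window and does not show binding.

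**Figure D5:**
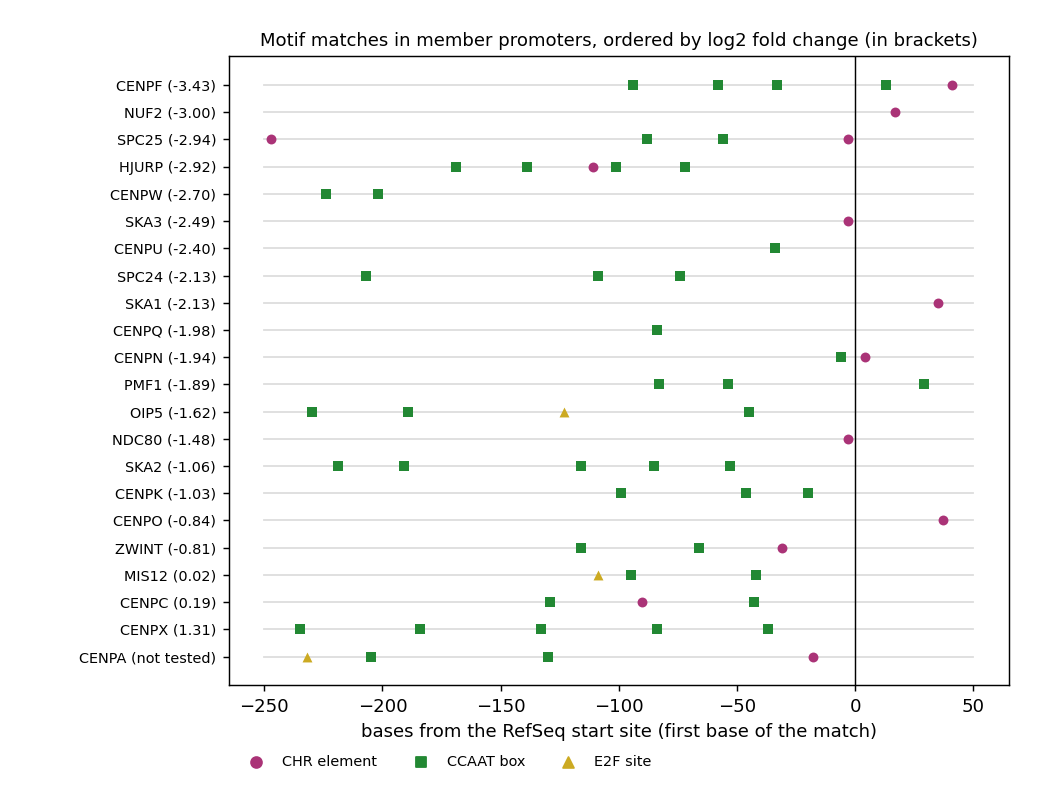
Positions of the CHR, E2F and CCAAT matches in the promoters of the members that have one, in bases from the start site on the horizontal axis, with the log2 fold change of each gene. CHR matches occur both in members that fell, such as NUF2 at base 17, and in CENPC at base -90, which was not called.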

How the data were processed

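RNA from 6 samples (TruSeq RNA kit, per the labels' protocols) was sequenced. The authors deposited FPKM per transcript for each sample. The submitters' processing notes name hg19 and Bowtie 0.12.2, while no source used here gives the quantifier, the annotation release or the use of strand. Of 30624 listed transcripts, 30504 were named through GENCODE 29 and summed per gene. Every listed transcript has a group mean of at least 0.500 FPKM in 1 group, so genes low in both groups are not listed. The test took genes whose 6-library mean reached 0.5 FPKM and used limma 3.58.1 (R 4.3.3, statmod 1.5.0, trend and robust moderation) on log2(FPKM + 1), with Benjamini-Hochberg adjustment over 11520 genes. Fold changes on this scale understate the changes of low genes. An exact permutation test of 3 against 3 cannot go below p = 0.1 and was not used. In simulated data of 11520 genes for this comparison, 200 genes were changed, each with a mean log2(FPKM + 1) of at least 3. Changes of 0.5, 1 and 2 (log2) were recovered in 4.48%, 47.8% and 87.9% of cases. In the real data 48.8% of genes were called, so these shares need not hold there. The members and lists were chosen with earlier results of these data known. All members are named, and from each other list up to 4 genes with the smallest adjusted p, plus CDKN1A, E2F4, RBL2, FOXM1, MYBL2 and MKI67. Some genes that this rule takes are not reported here. Libraries were compared before averaging and share at most 1 identical transcript value. Promoters came from RefSeq (GRCh38.p14), using the first entry of a gene with several. Alternatives numbered 17.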

Additional observations from a re-analysis of the deposited data

How the results depend on the processing

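Over the 17 alternatives, the members' calls stayed on the same side of the threshold in 538 cases. They passed from called to not called in 23 and from not called to called in 3, and no called value reversed. Values that were not called could change sign, as those of CENPC and MIS12 did. With a mean of at least 5 FPKM required, 20 members were tested, 17 fell and 0 rose, because CENPX was among those not tested, and 1844 genes in all were called higher. With the most abundant transcript 18 members and 15.3% of all genes tested fell. At an adjusted p below 0.01, 24 members and 14.4% of all genes tested fell. Under the scalings, pseudocount and moderation tried, 26 or 27 members fell, and CENPX rose in each of these. Leaving out 1 library at a time gave 25 to 28 members lower and 1 higher, 2056 to 2406 genes lower and 2509 to 3277 higher, and 84 to 89 genes of the other lists lower and 13 to 17 higher. The log2 fold change of MIS12 ranged from -0.36 to 0.24 and was never called. With the replicate number as a block, 26 members fell, 25 of them among the 27, against 2172 genes lower and 2617 higher in all. CENPP (adjusted p = 0.052) and CENPE (0.0505, limma) were then not called, and ZWINT (0.0245) and the CCAN gene ITGB3BP (0.0192, limma) were called lower. Same-numbered libraries had correlations of -0.104, 0.0215 and -0.035 between their deviations. No pairing by number was thus seen on average across genes, but such correlations cannot settle whether the samples were paired. Low FPKM values limit what can be said of CENPA and CENPC, and of CENPX, the 1 member that rose, which had a DMSO mean of 1.36 FPKM. With 3 libraries per group, changes of 2-fold or less were often missed in simulated data where only 200 genes changed. How often they were missed in the real data is not known.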
